A study of Mus musculus with 2 samples.

Results

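mmu-miR-99a, mmu-miR-99b, mmu-miR-100, mmu-miR-125a-5p and mmu-miR-125b-5p are the microRNAs (miRNAs) that the mouse genome encodes beside let-7 in 3 chromosomal clusters. The prefix mmu stands for mouse and is left out from here on. These 5 were selected by name from the 558 miRNA products of the study's list of known miRNAs detected in mouse brain, and each was set beside the let-7 of its own cluster. Small RNAs of 18 to 30 nucleotides (nt) were sequenced from whole brains of male C57BL/6J mice, 1 library from young animals aged 5 months and 1 from old animals aged 24 to 25 months. Each library combined cDNA from 2 mice, so the spread between animals of one age cannot be seen. The tests below therefore compare 2 libraries and not the ages, and all errors and intervals cover the counting of reads only, with PCR copies counted as separate reads.

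miRNAs are small RNAs cut from hairpin precursors that guide the silencing of messenger RNAs, mostly through the seed, bases 2 to 8 from the 5′ end. let-7 and lin-4, whose vertebrate counterparts are the miR-125 miRNAs, were found in worms as regulators of developmental timing, and in mammals let-7 and miR-125 are abundant in neural tissue. miR-100 belongs to one of the oldest known miRNA families of animals, and its linkage with let-7 and miR-125 is kept in flies as well as in vertebrates.

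The sequences of the members show why their reads can be told apart while their seeds cannot. The mature sequences below are those of RefSeq (build GRCm38.p6), with the seed in capitals, and each was identical to the tag (distinct sequence) whose reads the count list gave for that miRNA.
miR-99a-5p: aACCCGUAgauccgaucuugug
miR-100-5p: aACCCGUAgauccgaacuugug
miR-99b-5p: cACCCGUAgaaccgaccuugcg
miR-125a-5p: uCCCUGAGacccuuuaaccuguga
miR-125b-5p: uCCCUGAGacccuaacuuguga
let-7a-5p: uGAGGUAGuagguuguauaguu
let-7c-5p: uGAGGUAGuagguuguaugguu
let-7e-5p: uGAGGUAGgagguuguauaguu
miR-99a, miR-99b and miR-100 shared the seed ACCCGUA, and the miR-125 miRNAs shared CCCUGAG. miR-99a differed from miR-100 by U16A alone, with positions counted from 1 at the 5′ end and the base of the first named miRNA written first. miR-99b differed from miR-99a at 4 positions, of which A1C is the first base. let-7a differed from let-7c by A19G, so these were counted by their first 19 nt. Every other miRNA was counted by all tags that share the first 18 nt of its counted tag, apart from the opposite strands below.

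In the NCBIM37 (mm9) assembly all 3 clusters lay on the plus strand, each with a miR-99 or miR-100 gene first, let-7 next and miR-125 last. On chromosome 16, miR-99a (chr16:77599185-77599206) was followed by let-7c 732 nt downstream, both inside an intron of Gm11146 on the opposite strand. miR-125b-5p (chr16:77646524-77646545) lay 47.3 kb from miR-99a, and no other annotated gene covered it. On chromosome 17, miR-99b (chr17:17967158-17967179), let-7e and miR-125a-5p (chr17:17967781-17967804) began within 623 nt, and miR-125a-5p lay in an exon of Ncrna00085 on the same strand. On chromosome 9, miR-100 (chr9:41339520-41339541), let-7a 5.29 kb downstream and miR-125b-5p (chr9:41390023-41390044) 50.5 kb downstream all fell in introns of the lincRNA D230004N17Rik. There miR-125b-5p also lay in an intron of the protein-coding gene 2610203C20Rik on the same strand.

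The tags of miR-99a, miR-99b, miR-100 and miR-125a-5p each matched the genome perfectly at 1 place, although the first 18 nt of miR-125a-5p matched at 2. The miR-125b-5p tag matched at 2, on chromosomes 9 and 16, so its reads cannot be divided between the clusters. let-7a and let-7c also matched at 2 places each, let-7a on chromosomes 9 and 13 and let-7c on chromosomes 15 and 16, and their reads include those from the second locus.

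The libraries held 4523267 (young) and 6658732 (old) reads, a depth ratio of 1.47. A base was undetermined in 4.57% of reads in the first and in 1.07% in the second. miR-124 and miR-9, miRNAs of neurons and neural cells, were present in both libraries, with 178300 and 19900 reads in the young and 113206 and 19900 in the old, counted by their first 18 nt.

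All 5 members took a smaller share of the reads in the old library, from 0.694% of young reads to 0.458% of old reads in sum. miR-99a had the most reads of the members in the young library and miR-125b-5p in the old library, with miR-99b, miR-100 and miR-125a-5p below them in the same order in both. Neighbours in this order differed beyond their 95% Poisson intervals in each library. Levels of different miRNAs also carry the efficiency of adapter ligation, which was not measured here. In whole brain, fewer cells of a type and less RNA per cell cannot be told apart.

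**Figure D1:**
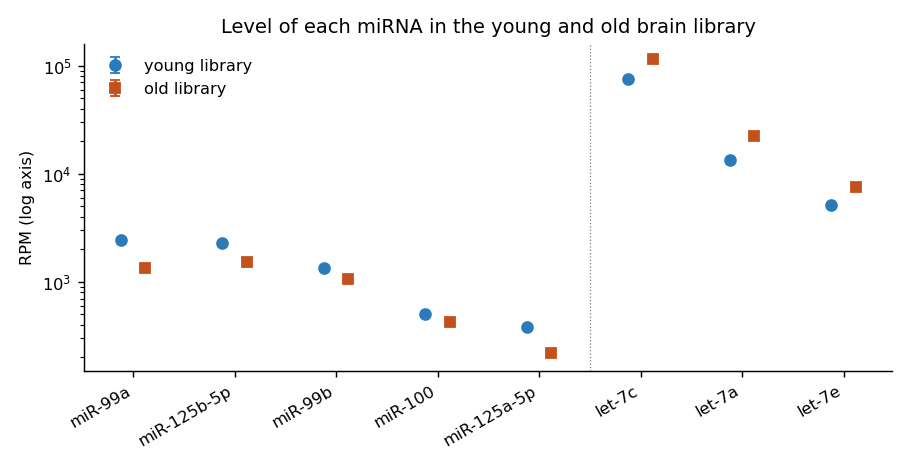
Level of each member and of its let-7 partners in the young library (circles) and the old library (squares), in RPM (reads in every 1000000 reads of the library) on a log axis, with 95% Poisson intervals that are mostly smaller than the symbols. The 5 members sit lower in the old library and the 3 let-7 miRNAs sit higher, and let-7c lies above every member in both libraries.

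Of the miR-99/100 miRNAs, miR-99a had 10919 reads in the young library and 8905 in the old, or 2414 and 1337 RPM (reads in every 1000000 reads of the library). Its log2 ratio of old over young was -0.85 (counting SE 0.021), the largest difference among the members. miR-99b, with 6090 and 7110 reads, or 1346 and 1068 RPM, had a log2 ratio of -0.33 (SE 0.025, adjusted p = 8.12e-41). miR-100 was the member nearest to no difference. It had 2265 and 2823 reads, or 501 and 424 RPM, and a log2 ratio of -0.24 (SE 0.041, adjusted p = 3.29e-09).

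Of the miR-125 miRNAs, miR-125a-5p had 1723 reads in the young library and 1445 in the old, or 381 and 217 RPM, and a log2 ratio of -0.81 (SE 0.051, adjusted p = 6.19e-57). miR-125b-5p had nearly the same raw number of reads in both libraries, 10382 and 10216, and the deeper old library made that 2295 and 1534 RPM. Its log2 ratio was -0.58 (SE 0.020, adjusted p = 6.72e-187). The p-values are two-sided, from DEGseq's random sampling model applied to the reads, with Benjamini-Hochberg adjustment over 168 known miRNAs.

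These differences were of the size seen in known miRNAs as a whole. All 5 members passed p under 0.05 in the lower direction, as did 73.8% of the 168 known miRNAs with distinct starts. The members' median log2 ratio was -0.58 and that of the known miRNAs -0.59, with 134 of 168 (79.8%) lower in the old library. miR-99a lay at percentile 33.9 of the known miRNAs and miR-125a-5p at 37.5, whereas miR-125b-5p was at 51.2, miR-99b at 64.9 and miR-100 at 70.2. With total reads as the depth no member differed by 2-fold or more, against 28% of the known miRNAs. The known miRNAs of at least 1000 reads nearest to the members' median were miR-872, miR-219-3p and miR-192, at -0.58, -0.59 and -0.59, among 118 candidates.

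The direction and size depended on the depth used. With the counted tags of the 199 known miRNAs found through a single tag as the depth, every log2 ratio moved by -0.21. All 5 members were then lower, where 86.3% of the known miRNAs were. miR-99a (-1.07) and miR-125a-5p (-1.02) then differed by more than 2-fold, as did 39.3% of the known miRNAs. Tags with a let-7 start made up 34.1% of the young library and 49.0% of the old one. With those tags removed from the depth, every log2 ratio moved up by 0.37, and 3 of the 5 members remained lower, miR-99a, miR-125a-5p and miR-125b-5p, where 63.7% of the known miRNAs were lower. miR-99b and miR-100 then stood at 0.04 and 0.13. With DESeq2's size factors, which moved the ratios up by 0.62, miR-99a and miR-125a-5p were the 2 that stayed lower, at -0.23 and -0.19, where 47.6% of the known miRNAs were lower. When an assumed biological coefficient of variation of 0.2 was put into edgeR's exact test, miR-99a remained past p under 0.05 and the other 4 did not, beside 36.9% of the known miRNAs called lower.

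**Figure D2:**
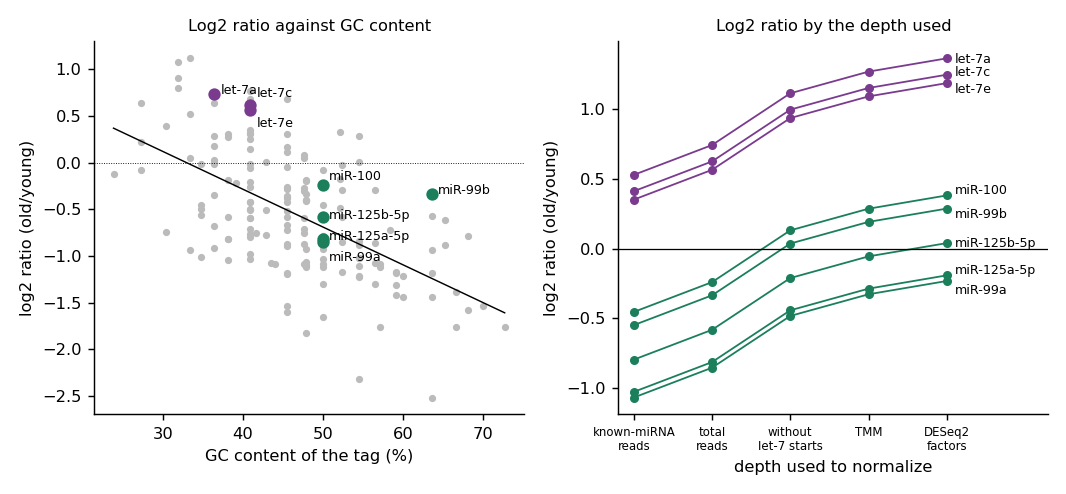
Left, log2 ratio of old over young against the GC content of the tag (percent) for 168 known miRNAs (grey), the members (green) and the let-7 partners (purple), with the least-squares line of -0.40 log2 units per 10% GC. Right, the same ratio of members and partners under 5 choices of depth, where the members move from all below 0 with total reads to 2 of 5 below 0 with DESeq2 size factors.

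Base composition moved with the ratio. Over the 168 known miRNAs the log2 ratio fell by 0.40 for each 10% of GC content (Pearson r = -0.59 across miRNAs, which share the 2 libraries and are not independent replicates). The members held 50% GC, apart from miR-99b with 63.6%, while let-7a held 36.4% and let-7c and let-7e held 40.9%. With the line subtracted, miR-99b stood at 0.35 and the other 4 members stayed below 0, between -0.11 for miR-100 and -0.72 for miR-99a. The part of base composition in these differences was not tested.

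A ratio of reads within a library does not depend on its depth, and the members were therefore set against the let-7 of their cluster. let-7a, let-7c and let-7e took larger shares of the old library, with log2 ratios of 0.74 (SE 0.0069), 0.62 (SE 0.0030) and 0.56 (SE 0.011). The let-7e reads include a tag with 1077 and 3110 reads that has the first 18 bases of let-7e and the last 4 of let-7c, and its source is uncertain. Every member lost ground to its partner, by Fisher's exact test on the reads, two-sided and unadjusted over the 13 comparisons made among these miRNAs.

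On chromosome 16, the number of let-7c reads for each miR-99a read went from 31.1 in the young library to 86.4 in the old. The difference of log2 ratios, member minus let-7, was -1.48 (SE 0.021), the widest of the 6 pairs. For miR-125b-5p, let-7c reads per read went from 32.7 to 75.3, a difference of -1.20 (SE 0.020).

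On chromosome 17, where all 3 hairpins lie within a kilobase, let-7e had 3.82 reads for each miR-99b read in the young library and 7.11 in the old. The difference was -0.90 (SE 0.028, exact p = 1.2e-226), the narrowest of the 6 pairs. let-7e reads per miR-125a-5p read went from 13.5 to 35.0, a difference of -1.37 (SE 0.053, exact p = 1.04e-148). With the GC line subtracted, the pair of miR-99b and let-7e was at 0.02 (SE 0.028), and the miR-125a-5p pair at -1.01.

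On chromosome 9, let-7a reads for each miR-100 read went from 26.8 to 52.9, a difference of -0.98 (SE 0.041, exact p = 8.62e-120). For miR-125b-5p they went from 5.85 to 14.6, a difference of -1.32 (SE 0.021). After subtraction of the GC line these pairs remained below 0, at -0.43 and -0.77, as did those of chromosome 16 at -1.11 for miR-99a and -0.84 for miR-125b-5p.

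**Figure D3:**
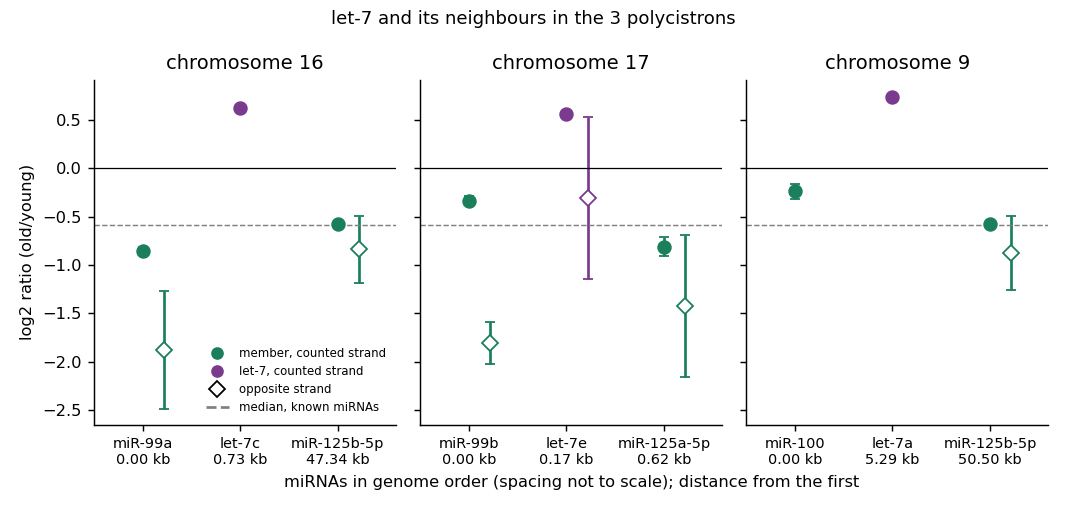
Log2 ratio of old over young for the 3 miRNAs of each cluster in genome order, with distance from the first miRNA in kb and 95% counting intervals. Filled circles are the counted strands, members in green and let-7 in purple. Open diamonds are the opposite strands with at least 10 reads in a library. They were counted with 5′ ends shifted by up to 2 nt and with any base at the first 2 positions. The dashed line is the median of the 168 known miRNAs at -0.59. The miR-125b-5p circle on chromosomes 16 and 9 is the same value, from reads that cannot be divided between the clusters. With total reads as the depth, the counted strand of let-7 is above 0 and those of both neighbours are below 0 in each of the 3 clusters. The opposite strand let-7e-3p is at -0.31.

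The members also differed from each other. miR-99a fell by more than miR-125b-5p, with a difference of -0.27 (SE 0.029, exact p = 5.07e-21). miR-99b stood above miR-125a-5p by 0.48 (SE 0.057, exact p = 8.23e-17), and miR-100 above miR-125b-5p by 0.34 (SE 0.045, exact p = 5.49e-14). On chromosome 17 the log2 ratio of the first miRNA of the cluster was thus above that of the last. For chromosomes 16 and 9 the last miRNA is the same pooled miR-125b-5p count. Those comparisons place miR-99a below it and miR-100 above it, and cannot show the order within either cluster.

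Between miRNAs of one seed, miR-99a was below miR-99b by a difference of -0.52 (SE 0.033, exact p = 4.16e-57) and below miR-100 by -0.61 (SE 0.046, exact p = 2.94e-41), although a single base separates miR-99a from miR-100. The difference between miR-99b and miR-100 was -0.09 (SE 0.048, exact p = 0.0506), with a 95% interval from its SE of -0.19 to -0.00050. miR-125a-5p was below miR-125b-5p by -0.23 (SE 0.055, exact p = 3.15e-05). On the single counted tags, of which miR-125a-5p had only 131 and 116 reads, the comparison of miR-125a-5p with miR-125b-5p and that of miR-99b with miR-125a-5p no longer passed (exact p = 0.404 and 0.149), and that of miR-99b with miR-100 did (exact p = 0.0181).

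Summed by seed, the ACCCGUA miRNAs made up 0.426% of young reads and 0.283% of old reads, and the CCCUGAG miRNAs 0.268% and 0.175%. The log2 ratios of these sums were -0.59 (SE 0.015) and -0.61 (SE 0.019). Outside the members, miR-351-5p was the other CCCUGAG miRNA with reads. It had 33 in the young library and 17 in the old, while miR-6367 and miR-6394 had none.

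With total reads as the depth, the let-7 family moved the other way with 1 exception. Of its 9 members, 8 were higher in the old library and passed p under 0.05, where 13.7% of the known miRNAs did, with a family median of 0.62. let-7i, with 123149 and 135714 reads, was lower, with a log2 ratio of -0.42. These directions also depended on the depth. let-7b, at 0.12, becomes lower under the shift of -0.21 from the known-miRNA depth. let-7i becomes higher under the shifts of 0.52 from TMM and 0.62 from DESeq2's size factors. At any depth let-7i is within the range of the members, between miR-99b and miR-125b-5p, although it carries the let-7 seed.

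The opposite strand of each hairpin, which is mostly discarded when the mature strand is loaded into Argonaute, is read from the same precursor. Opposite strands were counted with 5′ ends shifted by up to 2 nt, unlike the mature strands. That count also accepted any base, undetermined ones included, at the first 2 positions. Reads with an undetermined base were more frequent in the young library, at 4.57% against 1.07% in the old. Counted that way, miR-99a, miR-99b, miR-125a-5p and miR-125b-5p had log2 ratios of -0.93, -0.39, -0.85 and -0.63, lower than by their first 18 nt. The strand differences given here are therefore wider than under the same rule, which was not tested. miR-99b-3p was the most frequent of the opposite strands.
miR-99b-3p: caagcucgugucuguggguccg
miR-99a-3p: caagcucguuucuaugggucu
miR-99b-3p had 578 reads in the young library and 243 in the old, a log2 ratio of -1.81 (SE 0.11, exact binomial p = 3.85e-67). It fell further than miR-99b, whose reads per miR-99b-3p read went from 10.5 to 29.3, a difference of -1.47 (SE 0.11, Fisher's exact p = 2.78e-42). The strands of this hairpin have the same GC content, 63.6%. miR-99a-3p, with 75 and 30 reads, had a log2 ratio of -1.88 (SE 0.31, exact binomial p = 1.83e-10) and also fell further than miR-99a, by a difference of -1.03 (SE 0.31, Fisher's exact p = 0.000758).

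For miR-125a the difference between the strands of the hairpin did not pass the test. miR-125a-3p had 42 and 23 reads and stood -0.61 from miR-125a-5p (SE 0.38, Fisher's exact p = 0.104). The same direction was seen for let-7e-3p of this cluster, with 21 and 25 reads and a log2 ratio of -0.31 (SE 0.43). let-7e-3p stood -0.87 from let-7e (SE 0.43, Fisher's exact p = 0.0551). The miR-125b hairpins can be told apart by their opposite strands, whereas miR-125b-5p pools the reads of both.
miR-125b-1-3p: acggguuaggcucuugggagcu
miR-125b-2-3p: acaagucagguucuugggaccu
miR-125b-1-3p, from chromosome 9, had 122 and 98 reads, and miR-125b-2-3p, from chromosome 16, had 146 and 120. They stood -0.29 (SE 0.20, Fisher's exact p = 0.154) and -0.26 (SE 0.18, Fisher's exact p = 0.156) from the pooled miR-125b-5p. Neither value compares the strands of a single hairpin, and the sum of both products was not tested against miR-125b-5p. The chromosome 9 product made up 45.5% of their sum in the young library (95% Wilson interval 39.7 to 51.5) and 45.0% in the old (38.5 to 51.6). miR-100-3p had 0 reads in the young library and 6 in the old, where a count of 0 allows up to 3 reads.

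The members differed in their 3′ ends more than the libraries did. Reads that match the genome over their whole length made up 90.3% of miR-125a-5p and 87.2% of miR-125b-5p in the young library, 79.9% of miR-99a and 75.3% of miR-100, but only 58.0% of miR-99b. In the old library these shares were 89.6%, 86.8%, 81.3%, 76.7% and 54.6% in the same order. Reads with one or more A added at the 3′ end made up 34.9% of miR-99b in the young library (Wilson interval 33.7 to 36.1) and 36.1% in the old (35.0 to 37.2), and 5.78% to 17.2% of the other members over both libraries. Added U was most frequent in miR-99a, at 8.70% and 8.73%.

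The main tags of miR-99b show this ending, here as DNA with the added bases in capitals.
miR-99b, full length: cacccgtagaaccgaccttgcg
miR-99b, 21 nt: cacccgtagaaccgaccttgc
miR-99b, 21 nt with A: cacccgtagaaccgaccttgcA
miR-99b, full length with AA: cacccgtagaaccgaccttgcgAA
The full-length tag had 1890 reads in the young library and 2040 in the old, a log2 ratio of -0.45 (SE 0.046). The tag shortened by a base and ending in an added A had 678 and 1000 reads, or 149.9 and 150.2 RPM. Its log2 ratio was 0.00 (SE 0.072). It is also the full-length tag with A in place of its last G. The counting cannot separate these and placed it in the added A share. The full-length tag with AA, at 557 and 569 reads, had a ratio of -0.53 (SE 0.086).

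**Figure D4:**
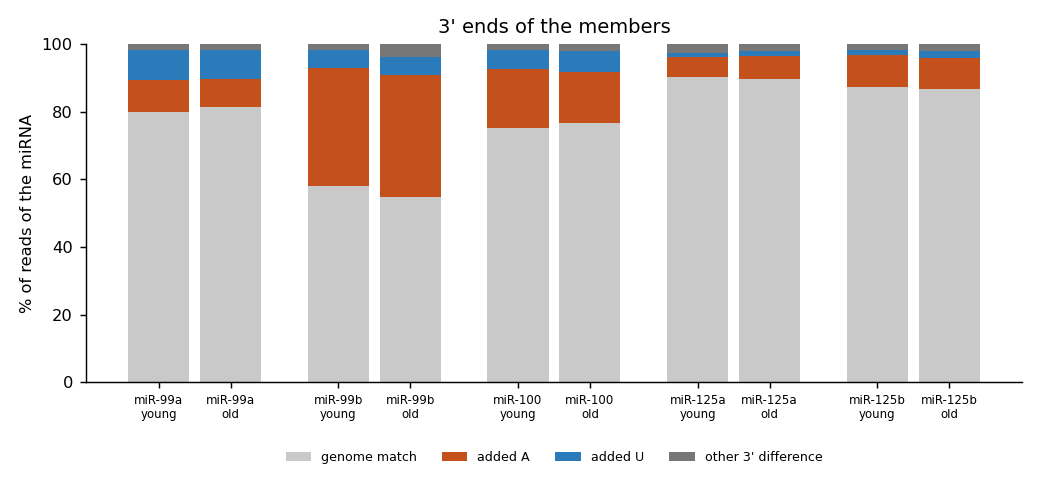
Share of each member's reads (percent) by the kind of 3′ end in the young and old library, from tags without undetermined bases. The genome-matching share (light grey) of miR-99b is 58.0% in the young and 54.6% in the old library, below that of every other member, and its added A share (orange) is above that of the others.

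The most frequent form was not always the listed one. miR-99a was led by a 21-nt tag, with 4395 and 4007 reads (log2 ratio -0.69, SE 0.032), over the 22-nt tag with 4075 and 3027 (-0.99, SE 0.035). miR-125a-5p was led by a 22-nt tag with 940 and 791 reads, and its 24-nt listed tag made up only 7.64% and 8.03% of its reads. miR-125b-5p was led by its listed tag, at 58.5% of reads in both libraries, and miR-100 by its own at 44.4% and 43.5%.
miR-99a, 21 nt: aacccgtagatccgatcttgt
miR-99a, 22 nt: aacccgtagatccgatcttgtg
miR-125a-5p, 22 nt: tccctgagaccctttaacctgt
miR-125a-5p, 24 nt: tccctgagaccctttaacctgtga
The 5′ ends were more uniform. Between 96.8% and 99.3% of reads began at the annotated first base, so the seeds were nearly always those shown above. miR-125b-5p had the most shifted starts, 1.53% of young and 2.12% of old reads beginning 1 base downstream.

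Among 268 single substitutions counted in the first 18 bases of the members, 1 stood above the rest and was singled out after its value was seen. miR-99a carried G in place of A at its first base (A1G) in 494 young and 285 old reads, or 4.34% (Wilson interval 3.98 to 4.73) and 3.10% (2.77 to 3.48). The median of the others was 0.126% over both libraries, and the next highest was C11U in miR-125a-5p, at 2.50% and 2.03%. miR-100, which shares its first 15 bases with miR-99a, had A1G in 7 and 16 reads, or 0.309% and 0.564%.
miR-99a with G first, 22 nt: Gacccgtagatccgatcttgtg
miR-99a with G first, 21 nt: Gacccgtagatccgatcttgt
The capital marks the changed base. These tags had 239 and 125 reads at 22 nt and 182 and 127 reads at 21 nt, and they matched the genome perfectly at 0 places. The changed base lies outside the seed. How many mismatches the authors' alignment to the genome allowed is not stated in the sources used here, and errors of base calling were not assessed. Both bear on the substitutions and on the added 3′ bases above.

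**Figure D5:**
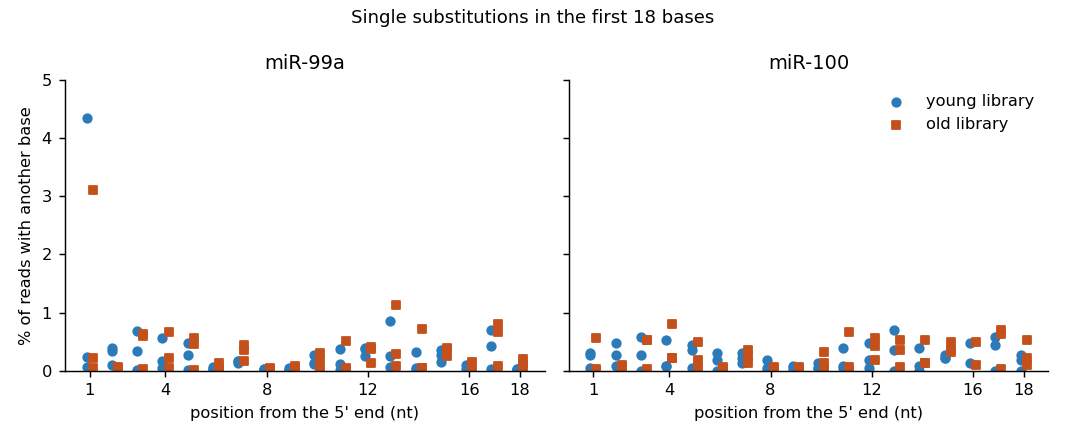
Share of reads (percent) of miR-99a and miR-100 with another base at each of the first 18 positions from the 5′ end, 1 point per substitution, in the young library (circles) and the old library (squares). The G at position 1 of miR-99a, at 4.34% and 3.10%, is above all other points of both miRNAs.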

How the data were processed

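Small RNAs of whole mouse brain were sequenced in 1 young and 1 old library. The authors trimmed the adapter from 36-nt reads, aligned them to mm9 (per the labels) with SOAP, collapsed identical sequences and deposited raw counts of reads per distinct sequence, without normalization; tool versions are not given in the sources used here. Reads the authors did not align are not analysed here. A change in undetermined bases or in alignment changes which reads match.

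Each member was found as the tag whose 2 counts equal those of the study's list of known miRNAs, and every tag with its first 18 nt was added, also where later bases were undetermined. Known miRNAs found through a single tag numbered 199, of which 173 were not star sequences and 168 had distinct starts. Mature sequences came from RefSeq's table and coordinates from perfect matches to NCBIM37. Depth was the total reads, 4523267 young and 6658732 old, so that 1 count is a small share of any member and precision is set by the member's own reads.

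DEGseq's formula, exact binomial and Fisher's exact tests were computed in Python (3.11.15, scipy 1.17.1, numpy 2.4.6). TMM and the exact test came from edgeR 4.0.16 and size factors from DESeq2 1.42.0, both under R 4.3.3. A quasi-likelihood fit needs replicates and could not be made with 1 library per age. The scripts were tested on simulated data. Alternatives were 4 other depths, the single tag, the first 16 nt, and undetermined bases or 1 substitution allowed. Others were shifted 5′ ends with any base at the first 2 positions, genome-matching tags only, 1 read added and a GC line. Assumed coefficients of variation of 0.1, 0.2 and 0.4 were also used. The members and lists were chosen with earlier results of these data known. Named beside the members were their let-7 partners, the let-7 family, opposite strands, miRNAs of the same seed, and the 3 miRNAs of at least 1000 reads nearest to the members' median.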

Additional observations from a re-analysis of the deposited data

How the results depend on the processing

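Of 80 alternatives for the members' log2 ratios, 61 kept direction and call, 11 lost the call and 8 reversed. miR-99b reversed with TMM (0.19), DESeq2's size factors (0.29), a depth without let-7 starts (0.036) and the GC line (0.35). miR-100 reversed with TMM (0.28), size factors (0.38) and without let-7 starts (0.13), and miR-125b-5p with size factors (0.039). Each of these depths adds the same amount to every log2 ratio.

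With edgeR's exact test the ratios are as before and only the p-values change. miR-99b (-0.33) did not pass at assumed coefficients of variation of 0.1, 0.2 or 0.4 (p = 0.105, 0.416 and 0.689), nor did miR-100 (-0.24, p = 0.25, 0.561 and 0.774). miR-125a-5p (-0.81, p = 0.0512 and 0.334) and miR-125b-5p (-0.58, p = 0.158 and 0.487) did not pass at 0.2 and 0.4, nor miR-99a (-0.85, p = 0.31) at 0.4.

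Of 35 alternatives for the comparisons between miRNAs, 31 kept direction and call. miR-99b against let-7e reversed with the GC line (0.022, SE 0.028). On single tags, miR-99b against miR-125a-5p (0.29, exact p = 0.149) and miR-125a-5p against miR-125b-5p (-0.16, exact p = 0.404) lost the call, and miR-99b against miR-100 gained it (-0.18, exact p = 0.0181). The cause was not tested, though the single miR-125a-5p tag holds 131 and 116 reads. On single tags 142 of 173 known miRNAs passed p under 0.05 in either direction, and 10 alternatives gave 127 to 162. Not all of these share the 173 tested. The 162 are of 199 with star sequences included, and the first 18 nt gave 147 of 168. The 73.8% called lower on the first 18 nt became 36.9% at an assumed coefficient of variation of 0.2. No paired analysis was possible because each age has 1 library, which also leaves no replicate to leave out. miR-99a-3p, miR-125a-3p, let-7e-3p, miR-100-3p and miR-351-5p rest on at most 75 reads in a library.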
